A study of Mus musculus with 2 samples.

Results

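Prostaglandin E2 (PGE2) is made and sensed through a small set of genes, and 8 of them were followed here through the cells of mouse pancreatic tumours: Ptgs1, Ptgs2, Ptges, Ptges2, Ptges3, Hpgd, Ptger2 and Ptger4. They were chosen by symbol for their role in the pathway, and all 8 were found among the 32285 genes of both count matrices. The tumours grew from KPC pancreatic cancer cells implanted into the pancreas and were taken at day 21. The control hosts were Porcnfl/fl littermates, for which no Cre is named, and the knockout hosts were Csf1r-Cre;Porcnfl/fl, so the floxed Porcn allele was shared by all hosts and Cre set the knockout apart. Csf1r-Cre is driven by the promoter of the macrophage growth factor receptor gene, which is active in monocytes and macrophages and in some other leukocytes, and Porcn encodes the enzyme that prepares Wnt proteins for secretion. The cancer cells came from outside the host and are not described as carrying either allele. Tumours of 5 mice per genotype were pooled into 1 library of the 10x Genomics 3′ kit, so there were no replicates, the spread between mice is unknown, and no test between the genotypes was possible. Every difference below is between 2 libraries, and every interval is an exact 95% interval that covers counting error only.

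PGE2 is a lipid made from arachidonic acid. The cyclooxygenases PTGS1, present at a steady level in many tissues, and PTGS2, induced by inflammatory signals, turn arachidonic acid into the unstable intermediate PGH2, and prostaglandin E synthases turn PGH2 into PGE2. PTGES is the inducible membrane synthase that works with PTGS2, PTGES2 is a second membrane-associated synthase, and PTGES3, also called p23, is best known as a partner of the chaperone HSP90. HPGD oxidises PGE2 and ends its action. PTGER2 and PTGER4 are the EP2 and EP4 receptors, which raise cyclic AMP in the receiving cell. In pancreatic and other tumours PGE2 is known for dampening T cells, natural killer cells and dendritic cells.

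The promoters of the 2 cyclooxygenase genes are shown because the levels of the 2 genes were highest in different cell classes. The largest share of the transcripts of both was nevertheless in tumour cells. Each runs from 250 bases before to 50 bases after the RefSeq start on GRCm38.p6, and both lie on the plus strand, at chr2:36230176-36230475 for Ptgs1 and chr1:150099781-150100080 for Ptgs2. Capitals mark the motifs found.
Ptgs1: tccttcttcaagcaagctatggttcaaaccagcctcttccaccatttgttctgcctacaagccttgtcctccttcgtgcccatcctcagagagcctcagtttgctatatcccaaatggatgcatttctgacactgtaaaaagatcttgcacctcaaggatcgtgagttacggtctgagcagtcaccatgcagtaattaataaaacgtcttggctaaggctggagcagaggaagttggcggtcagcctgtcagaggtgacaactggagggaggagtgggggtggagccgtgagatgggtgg
Ptgs2: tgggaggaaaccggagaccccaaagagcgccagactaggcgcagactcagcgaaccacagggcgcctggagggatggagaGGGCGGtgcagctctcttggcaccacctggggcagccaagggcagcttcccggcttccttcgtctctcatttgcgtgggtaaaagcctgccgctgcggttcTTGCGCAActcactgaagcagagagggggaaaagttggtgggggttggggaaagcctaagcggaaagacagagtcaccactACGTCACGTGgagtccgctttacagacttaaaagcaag
Both strands were searched for the GC box (GGGCGG), a C/EBP palindrome (TTGCGCAA), the core of a cyclic AMP response element (ACGTCA), an E-box (CACGTG) and a TATA box (TATAAA). Ptgs2 held 1 match each to the first 4 motifs, with the response element and the E-box overlapping, and Ptgs1 held none of the 5. Of 32851 promoters of the same length, 35.7% held the GC box, 0.183% the palindrome, 7.51% the response element, 7.15% the E-box and 13.6% the TATA box. A match is a description of the letters and says nothing about binding in these cells. In the GENCODE annotation of GRCm38 the genes of this pathway lie on 6 chromosomes, with 3 on chromosome 2: Ptgs1 at chr2:36230426-36252272 (plus strand), Ptges at chr2:30889471-30929863 (minus) and Ptges2 at chr2:32395896-32405772 (plus). Ptgs2 is at chr1:150100031-150108227 (plus), Ptges3 at chr10:128058954-128077272 (plus) and Hpgd at chr8:56294585-56321043 (plus). Ptger2 is at chr14:44988195-45003820 (plus) and Ptger4 at chr15:5206661-5244187 (minus).

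The control library held 173934025 unique molecular identifiers (UMIs, counted transcript molecules) over 13766 barcodes and the knockout library 137527647 over 12251, of which 11516 and 10467 cells were kept. These fell into 50 clusters, which were named by marker genes into 14 classes written with the ending "-like", beside unnamed clusters with 1146 control and 430 knockout cells. A level is the UMIs of a gene summed over the cells of a class per 1000000 UMIs of that class (CPM). Only the T-like (190 control and 1625 knockout cells), epithelial/tumour-like (8391 and 5492), fibroblast-like (639 and 732), monocyte/macrophage-like (505 and 546) and neutrophil-like (293 and 185) classes had at least 100 cells in each library and were compared. The other classes are given as levels, and their names rest on markers of clusters built here. Porcn itself had 8 control and 4 knockout UMIs in the monocyte/macrophage-like class and none in the neutrophil-like class, so these counts could not check the deletion, and 3′ reads may still count a recombined allele. In all, 46 barcodes occurred in both libraries, and the same 11 values described below were called without them.

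**Figure D1:**
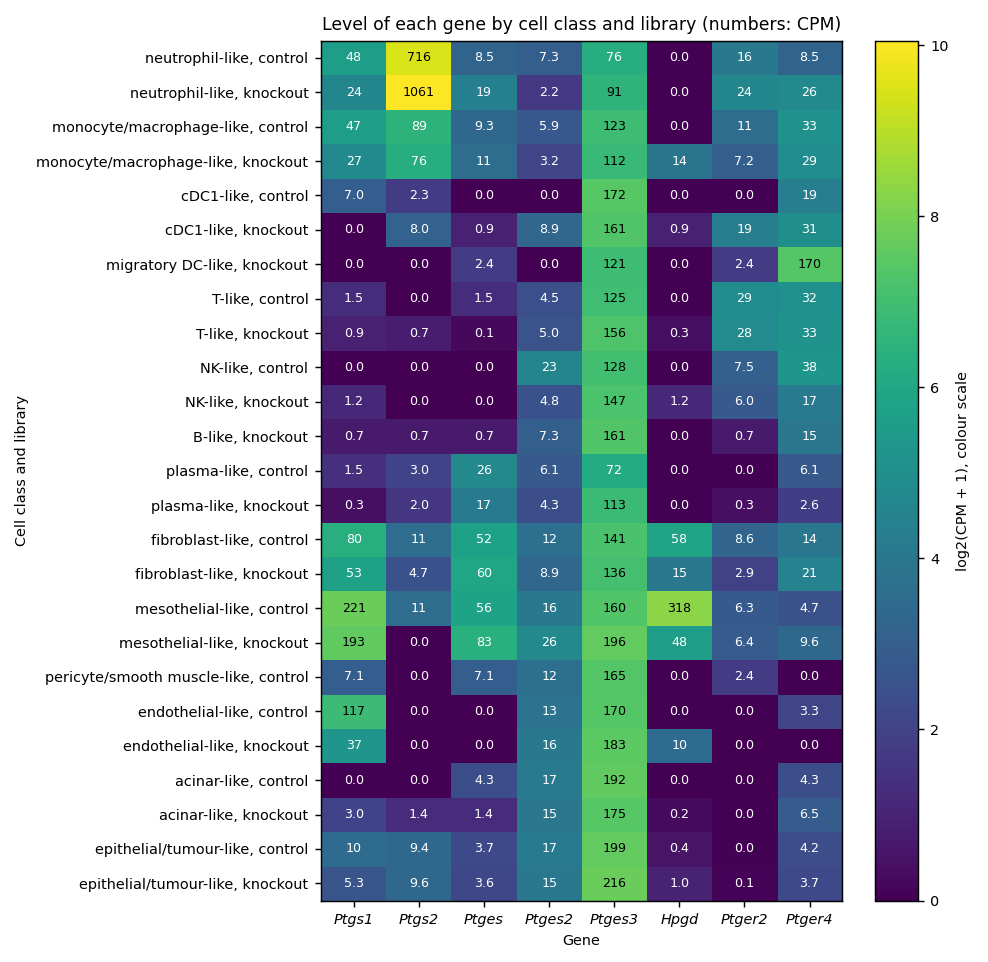
Levels of the 8 genes in each class and library with at least 20 cells, with CPM printed in each field and colour on a log2(CPM + 1) scale. Ptgs2 peaked in neutrophil-like cells, Ptgs1 and Hpgd in mesothelial-like cells, Ptges in mesothelial-like and fibroblast-like cells and Ptger4 in migratory DC-like cells, while Ptges3 was found in every row.

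A ratio of knockout over control was read for 31 pairs of a gene and a compared class that had at least 20 UMIs over both libraries. A value was called when the ratio, after adding 1 UMI to each sum, lay at least 1.5-fold from 1. Of the 31 values 3 were called higher and 8 lower in the knockout library, and 20 lay inside. By class, 1 of 7 was higher and 1 lower in epithelial/tumour-like cells, where 10.1% of all genes counted were called higher and 5.58% lower. In fibroblast-like cells 3 of 8 were lower and none higher, against 13.5% and 19.5% of genes. In monocyte/macrophage-like cells 3 of 8 were lower and 1 higher, against 10.2% and 7.89%. In neutrophil-like cells 1 of 4 was lower and 1 higher, against 18.7% and 16.8%, and in T-like cells none of 4 was called, against 16.4% lower and 10.3% higher. With so few genes these counts are a description and are not shown to differ from the background.

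**Figure D2:**
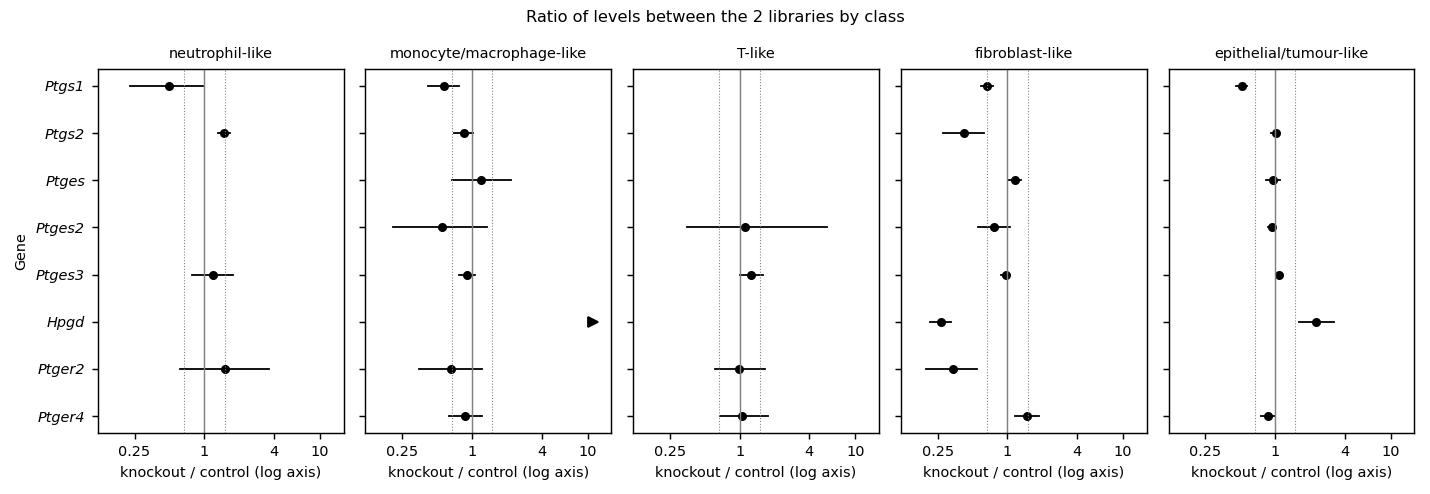
Ratio of the level in the knockout library to the control library for each gene and compared class with at least 20 UMIs, on a log axis. Points are ratios, bars exact 95% intervals for counting error, dotted lines the 1.5-fold limits, and the arrowhead a lower bound of 11.1 for Hpgd in monocyte/macrophage-like cells, where control had 0 UMIs; the Ptgs1 point lies left of 1 in each of the 4 classes where it is shown.

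Ptgs1 was the gene that was lower in the knockout library in most classes. In epithelial/tumour-like cells it stood at 10.4 CPM in control (1387 UMIs) and 5.31 CPM in knockout (502 UMIs), a ratio of 0.513 (0.462 to 0.568). In monocyte/macrophage-like cells it went from 46.8 to 26.6 CPM, a ratio of 0.569 (0.419 to 0.771). In neutrophil-like cells the levels were 48.5 and 23.8 CPM, from 40 and 11 UMIs, with a ratio of 0.492 (0.227 to 0.976). Fibroblast-like cells held 80.0 and 53.4 CPM, a ratio of 0.668 (0.589 to 0.755) that lay just inside the limit, and in 5 of 8 of their clusters with at least 15 cells in each library the knockout level was the higher one. Over only those clusters its log2 ratio was 0.0074 in place of -0.58. T-like cells had 1 and 6 UMIs of Ptgs1, too few for a ratio. Over all kept cells Ptgs1 had 21.6 CPM in control and 9.04 in knockout, a ratio of 0.419 (0.392 to 0.448), where 6.16% of genes were called lower and 18.2% higher.

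By level, Ptgs1 was highest in mesothelial-like cells, named after the lining cells of the abdominal cavity. They had 221 CPM (186 to 260) in 46 control cells and 193 CPM (147 to 248) in 32 knockout cells, intervals that overlap. This class also held all 8 fibroblast markers, at a sum of 13889 CPM in control and 15083 CPM in knockout. Its 6 mesothelial markers summed to 3239 and 3661 CPM. Endothelial-like cells of the vessel wall had 117 CPM (82.3 to 163) in 44 control cells and 36.5 CPM (14.7 to 75.3) in 23 knockout cells. Fibroblast-like cells had 80.0 CPM (74.5 to 85.8) in control, below the endothelial-like level but with an overlapping interval, and 53.4 CPM (48.2 to 59.1) in knockout, above it and again overlapping. The neutrophil-like and monocyte/macrophage-like levels did not differ beyond their intervals in either library. B-like, plasma-like and NK-like cells held at most 1 UMI per library.

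Within the tumour class the lower Ptgs1 was spread over clusters. It was lower in 9 of 11 clusters with at least 15 cells in each library, and in 7 of them the interval of the ratio lay below 1. The cycling cluster led by Ube2c, Cenpf and Prc1 (cluster 9) had 16.7 CPM (14.8 to 18.8) in control, against 2.82 CPM (1.89 to 4.05) in knockout. The cluster led by Lgals4, Rbp2 and Spink4 (cluster 8) had 23.1 and 10.1 CPM. The cluster led by Tnnt2, Hmga2 and Grem1 (cluster 5) had 19.2 and 10.7 CPM. The exception with an interval above 1 was a small cluster led by Tff2, Pkhd1 and Ttr (cluster 40). There 41 control cells had 5.75 CPM and 51 knockout cells 21.6 CPM. In the knockout library 15 Ptgs1 UMIs lay in 4 cells with at least 3 tuft cell markers. The control library had no such cell, and the part of these cells in the cluster 40 value was not tested. An unnamed cluster led by Csmd1, Hmga2 and Tnnt2 (cluster 6; 1047 control and 288 knockout cells) had 69.0 CPM (65.0 to 73.2) and 23.6 CPM (19.3 to 28.7), and it alone held 1111 of the 3643 control UMIs of Ptgs1. Adding the unnamed clusters that scored best for tumour markers kept the tumour value called.

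In monocyte/macrophage-like cells the cluster led by Mmp12, Arg1 and Chil3 (cluster 21) held 69 of 111 control and 23 of 74 knockout UMIs of Ptgs1, with 57.0 CPM (44.3 to 72.1) in control, against 33.3 CPM (21.1 to 50.003) in knockout. That cluster held 29.7% of the control and 12.6% of the knockout cells of the class. The C1q cluster (cluster 16) held 34 control and 46 knockout UMIs, at 49.0 CPM (33.9 to 68.4) and 39.1 CPM (28.7 to 52.2). A neutrophil-like cluster was led by S100a9, S100a8, Camp and Ngp (cluster 46). Camp and Ngp are genes of neutrophil granules made during maturation in the bone marrow. In neutrophil-like cells Ptgs1 came mainly from this cluster, with 32 of 40 control and 8 of 11 knockout UMIs. There its level was 78.5 CPM in control and 76.2 CPM in knockout, and that cluster was 18.4% of control and 5.95% of knockout neutrophil-like cells. With clusters weighted alike in both libraries the log2 ratio was -0.55 in place of -0.81 in monocyte/macrophage-like cells and -0.33 in place of -0.93 in neutrophil-like cells, and neither was then a call.

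**Figure D3:**
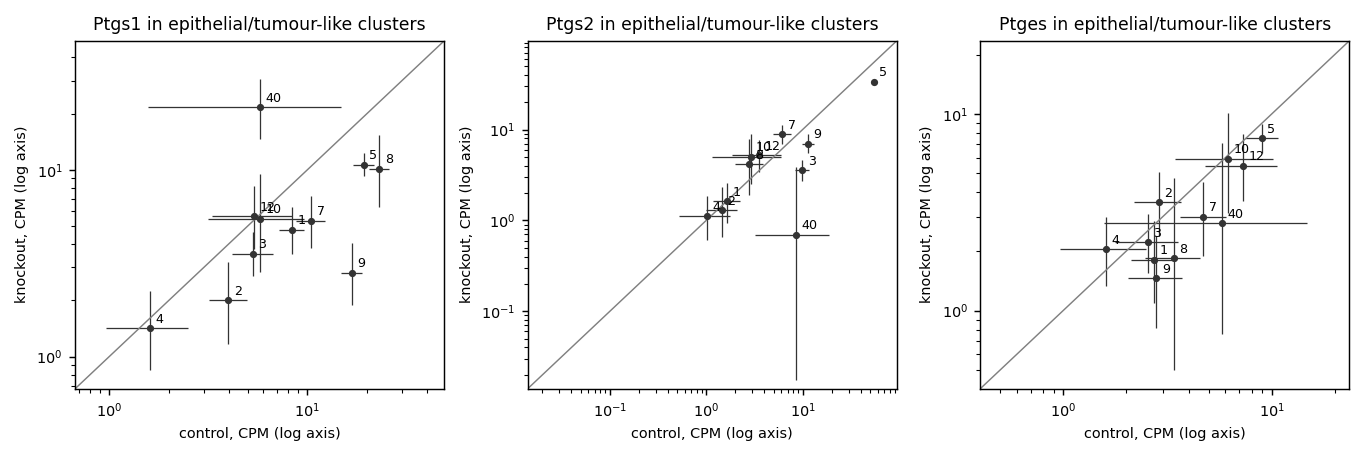
Levels of Ptgs1, Ptgs2 and Ptges in each epithelial/tumour-like cluster, control on the horizontal and knockout on the vertical axis, both logarithmic, with cluster numbers beside the points, exact 95% intervals as bars and the line of equal levels. For Ptgs1, 9 of 11 clusters lie below the line, and for Ptgs2 cluster 5 stands apart from the others in both libraries.

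Ptgs2 was most abundant in neutrophil-like cells. Its level there was 716 CPM (659 to 776; 591 UMIs) in control, against 1061 CPM (969 to 1159; 490 UMIs) in knockout. Monocyte/macrophage-like cells were next, with 89.3 CPM (77.7 to 102) and 75.6 CPM (65.7 to 86.5), intervals that overlap. Fibroblast-like cells had 11.2 and 4.73 CPM and epithelial/tumour-like cells 9.44 and 9.57 CPM. The T-like class had 0 UMIs in 190 control cells, which allows up to 3 UMIs, and 5 UMIs in 1625 knockout cells. Because tumour cells were so numerous, they still held 54.5% (52.5 to 56.5) of all Ptgs2 UMIs in control and 52.9% (50.5 to 55.3) in knockout, ahead of neutrophil-like cells with 25.5% and 28.7%. Over all kept cells the level was 13.7 CPM in control and 13.2 CPM in knockout.

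The neutrophil-like ratio of Ptgs2 was 1.48 (1.31 to 1.67), just inside the limit for a call, and it differed from the ratios within clusters. The cluster led by Cxcl2, S100a9 and Acod1 (cluster 20) had 1738 CPM (1575 to 1912) in control, against 1515 CPM (1377 to 1662) in knockout. The cluster led by S100a9, S100a8 and Retnlg (cluster 31) had 938 CPM (800 to 1092) and 705 CPM (512 to 947). Both levels were lower in knockout, with ratios of 0.872 (0.761 to 0.998) and 0.752 (0.526 to 1.05), the second of which includes 1. Cluster 46 had 14.7 CPM in control and 0 UMIs in 11 knockout cells. The makeup of the class differed too, since cluster 20 was 46.4% of control and 76.8% of knockout neutrophil-like cells. With clusters weighted alike the log2 ratio of the class was -0.24 in place of 0.57. Cells with fewer than 1000 UMIs were then left out and the others thinned to 1000 UMIs. Of these, 36.6% (30.9 to 42.5) of control and 42.6% (35.4 to 50.1) of knockout neutrophil-like cells kept a Ptgs2 UMI. Over all cells of the class without thinning the values were 39.2% and 50.8%. Among thinned tumour cells 0.743% and 0.788% kept one.

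**Figure D4:**
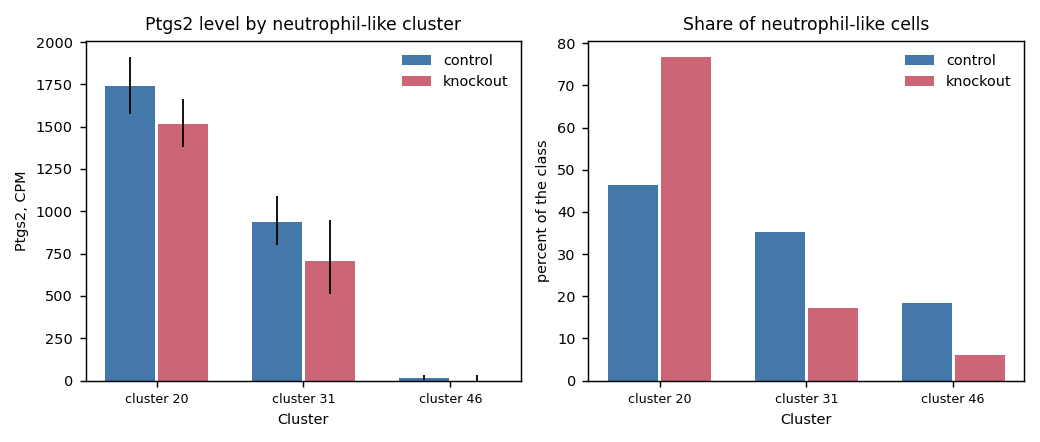
Left, Ptgs2 level in CPM in each neutrophil-like cluster and library with exact 95% intervals; right, the percentage of the neutrophil-like cells of each library that lay in each cluster. Ptgs2 is lower in knockout within clusters 20 and 31, while cluster 20, with the highest level, makes up 76.8% of knockout and 46.4% of control cells.

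Of 8 counted genes known to be induced together with Ptgs2, 7 were called higher and 1 lower in the same neutrophil-like class, where 16.8% of all genes were called higher and 18.7% lower. Their median log2 ratio was 1.42 against -0.05 over all genes. These values carry the same difference in clusters, and Cxcl2 and Il1b of this list are among the leading genes of cluster 20. Il1rn, the interleukin 1 receptor antagonist, had 474 CPM in control and 1633 in knockout, and Tnf, the cytokine, had 219 and 630 CPM. Immediate early genes, which respond within minutes to many stimuli including tissue digestion, were called higher in 4 of 10 and lower in none, and heat shock genes likewise in 4 of 10 and none, against the same 16.8% and 18.7%. The part of these in the Ptgs2 value was not tested.

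In monocyte/macrophage-like cells Ptgs2 was highest in cluster 18, which had Arg1 and Pid1 among its leading genes, with 186 CPM (142 to 239) in control, against 165 CPM (119 to 223) in knockout. It was lowest in the cluster led by the complement genes C1qa, C1qb and C1qc (cluster 16), with 34.6 and 21.3 CPM. Across the 4 clusters of the class, 3 were lower in knockout and 1 higher, and no interval of a ratio excluded 1. Of the inflammatory partners in this class 1 of 10 was called higher and 5 lower, against 7.89% and 10.2% of all genes, with a median log2 ratio of -0.29 against -0.02. Il1rn was the one called higher, from 243 to 396 CPM, and the chemokine gene Cxcl2 was among those called lower, from 677 to 322 CPM.

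In tumour cells Ptgs2 sat mainly in a single cluster. Cluster 5, led by Tnnt2, Hmga2, Grem1 and Igfbp3, had 55.0 CPM (51.1 to 59.2) in control, against 33.4 CPM (30.8 to 36.1) in knockout, a ratio of 0.607 (0.544 to 0.677). It was 7.85% of control and 16.8% of knockout epithelial/tumour-like cells. No other tumour cluster passed 11.4 CPM, the control level of cluster 9. The ratio lay below 1 with its interval in 4 of 11 clusters and above 1 in 1, cluster 7, with 6.13 and 8.87 CPM. The even class level of 9.44 and 9.57 CPM thus covered a lower level in cluster 5 and a larger share of it, and with tumour clusters weighted alike the log2 ratio was -0.60 in place of 0.02, which is a call of lower. Keeping the cells called as doublets also gave a call of lower, at -0.63. A few cells weighed much: the highest cell held 82 UMIs in control and 80 in knockout, and the top 5 cells held 24.8% and 21.0% of the class's UMIs.

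In fibroblast-like cells Ptgs2 was called lower, with 110 UMIs in control and 34 in knockout, a ratio of 0.424 (0.279 to 0.627). That class was held by different clusters in the 2 libraries. Clusters 34 and 35, led by Col1a1 and Col1a2, had 16.9% and 15.6% of control but 0.137% and 1.23% of knockout fibroblast-like cells, and cluster 50 had no knockout cell. Cluster 27, led by Fbn1 and Mfap5, and cluster 33, led by Dcn and Serping1, had 17.1% and 13.5% of knockout but 5.01% and 4.23% of control cells. Control Ptgs2 was highest in clusters 50, 32 and 35, with 42.0, 21.2 and 19.5 CPM, and knockout Ptgs2 in cluster 41, where all 8 UMIs came from 1 of 15 cells. With clusters weighted alike, the log2 ratio was 0.26 in place of -1.21, so the sign turned. Clusters 34 and 50 were left out of that weighting because they had too few knockout cells. Cluster 41, at 11.9% of control and 2.05% of knockout cells, counted for more in knockout there, and its knockout level rests on that 1 cell. The part of this cell in the turned sign was not tested. Epithelial markers also differed in this class, with 8 of 8 present and a sum of 836 CPM in control against 7 of 8 (Cldn7 at 0) and 216 CPM in knockout, and their part in the fibroblast-like values was not tested. The level of the epithelial markers in these cells, as a median share of that over all cells, was 18.3% in control and 4.43% in knockout. With that free RNA level subtracted Ptgs2, Hpgd and Ptger2 were still called lower, and Ptger4 became a call of higher, at a log2 ratio of 0.64 in place of 0.55.

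Ptges, the inducible synthase, had its highest levels in mesothelial-like and fibroblast-like cells. Mesothelial-like cells had 56.4 CPM (39.5 to 78.0) in control, against 83.4 CPM (54.5 to 122) in knockout, and fibroblast-like cells 52.2 CPM (47.8 to 56.9) and 60.4 CPM (54.9 to 66.4). These 2 classes did not differ beyond their intervals. Plasma-like cells had 25.9 CPM (15.1 to 41.5) and 16.5 CPM (12.3 to 21.8), and neutrophil-like cells 8.48 CPM (3.41 to 17.5) and 19.5 CPM (8.91 to 37.0), from 7 and 9 UMIs, so these classes overlap in both libraries. Tumour cells had 3.71 and 3.55 CPM. Other stromal classes held little: endothelial-like cells had 0 UMIs in 44 control and 23 knockout cells. Pericyte/smooth muscle-like cells had 3 UMIs in 52 control cells (7.08 CPM) and 0 in 9 knockout cells. The ratio was 1.16 (1.02 to 1.32) in fibroblast-like, 1.20 (0.675 to 2.18) in monocyte/macrophage-like and 0.958 (0.831 to 1.10) in epithelial/tumour-like cells, all inside 1.5-fold.

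Ptges and the cyclooxygenase with which it is usually paired were thus most abundant in different cells. Fibroblast-like cells held 43.3% of control and 46.8% of knockout Ptges UMIs, tumour cells 41.9% and 36.2%. Among tumour cells the Ptgs2-rich cluster 5 also had the highest Ptges, with 8.97 CPM (7.41 to 10.8) in control, against 7.54 CPM (6.35 to 8.90) in knockout. Among 8391 control tumour cells 67 held a UMI of both genes, where the product of their separate shares gives 21.7 cells, and among 5492 knockout cells 39, where it gives 19.1. Cells of high depth and of cluster 5 raise both shares, so this count does not show joint regulation. In fibroblast-like cells Ptgs1 and Ptges were found together in 149 of 639 control and 110 of 732 knockout cells, where the products give 125 and 92.7. Ptgs2 and Ptges were found together in 28 and 8 of these cells, where the products give 22.5 and 6.94.

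Ptges2 and Ptges3 were broad. Ptges2 had 16.5 CPM (15.9 to 17.3) in control, against 15.4 CPM (14.6 to 16.2) in knockout tumour cells, and the acinar-like, endothelial-like and mesothelial-like intervals overlapped these in both libraries. Monocyte/macrophage-like cells were lower, with 5.90 CPM (3.22 to 9.89) and 3.24 CPM (1.48 to 6.15). The call of lower in knockout there rested on 14 and 9 UMIs, and its interval of 0.210 to 1.36 includes 1. In tumour cells the ratio was 0.931 (0.871 to 0.995), and in fibroblast-like cells 0.763 (0.553 to 1.04).

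Ptges3 was detected in every class with at least 20 cells. Its level ran from 71.6 CPM in control plasma-like cells to 216 CPM (213 to 219) in knockout tumour cells. Neutrophil-like cells were near the bottom, with 76.3 CPM (58.6 to 97.6) and 90.9 CPM (65.5 to 123). All 5 ratios lay between 0.910, in monocyte/macrophage-like cells, and 1.25, in T-like cells. The heat shock genes listed with it include HSP90 and its partners. In tumour cells 2 of 10 were called higher and none lower, against 10.1% and 5.58% of all genes. Hspa1a and Hspa1b, the inducible HSP70 genes, had 42.1 and 42.7 CPM in control and 88.0 and 84.0 CPM in knockout tumour cells, whereas the Ptges3 ratio was 1.09 (1.07 to 1.11).

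Hpgd, the enzyme of breakdown, was spread differently over the classes in the 2 libraries, though fibroblast-like cells held the largest share in each. In control 68.7% of its 831 UMIs were in fibroblast-like and 24.4% in mesothelial-like cells. In knockout, with 325 UMIs, fibroblast-like cells held 34.2%, epithelial/tumour-like cells 28.0%, unnamed clusters 19.1% and monocyte/macrophage-like cells 12.0%. Its level over all kept cells was 4.92 CPM in control and 2.51 CPM in knockout, a ratio of 0.511 (0.448 to 0.581). The gene was clumped, with up to 93 UMIs in a single control cell, and the top 5 cells held 32.4% of control fibroblast-like UMIs.

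**Figure D5:**
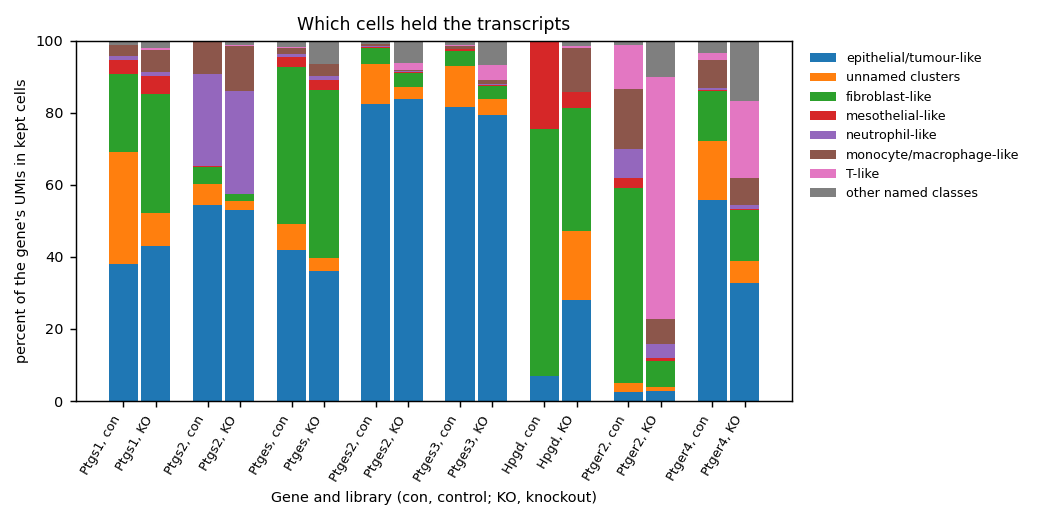
Percentage of each gene's UMIs in kept cells that came from each class, for the control (con) and knockout (KO) library. For Hpgd the fibroblast-like and mesothelial-like shares are 68.7% and 24.4% in control, and for Ptger2 the T-like share is 12.1% in control and 67.0% in knockout.

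In fibroblast-like cells Hpgd stood at 58.0 CPM (53.3 to 63.0) in control, against 15.4 CPM (12.7 to 18.6) in knockout, a ratio of 0.266 (0.215 to 0.327). Clusters 34 and 35, nearly confined to the control library, had 117 and 129 CPM and held 171 and 258 of the 571 control UMIs. In cluster 33, led by Dcn, Serping1 and Ptn and present in both libraries, the levels were 69.4 CPM (33.3 to 128) and 80.2 CPM (62.4 to 101). Hpgd was lower in knockout in 6 of the 8 clusters with at least 15 cells in each library, with 1 interval below 1, and higher in 2, of which cluster 33 is one. Using only those 8 clusters the log2 ratio was -0.37, which is no call, in place of -1.90, while weighting clusters alike gave -1.61, which is still a call. Mesothelial-like cells had the highest level, 318 CPM (276 to 365) in 46 control cells and 48.1 CPM (26.9 to 79.4) in 32 knockout cells. Of those 203 control UMIs, 60 came from a single cell and 71.9% from 5 cells.

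In monocyte/macrophage-like cells Hpgd had 0 UMIs in 505 control cells and 39 UMIs in 15 of 546 knockout cells, or 14.0 CPM (9.98 to 19.2). Against a floor of 3 control UMIs this was at least 11.1-fold higher, and with the counting error of both libraries the lower limit of the ratio was 8.61. It was called higher in every alternative that counted it. Of the 39 UMIs 37 were in cluster 16, led by C1qa, C1qb and C1qc, in 14 of 201 cells. An unnamed cluster led by Lyz2, Ms4a6c and Ccr2 (cluster 36), genes of monocytes, had 60 UMIs in 25 of 93 knockout cells, 124 CPM (94.9 to 160), and 0 UMIs in 9 control cells. Its best marker score was for cDC2 dendritic cells, but none of those markers was among its top 50 genes, so its cell type is open. The level expected in knockout monocyte/macrophage-like cells from free RNA was 0.103 CPM, estimated from epithelial/tumour markers only. Free RNA of fibroblast-like and mesothelial-like cells was not estimated there.

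In epithelial/tumour-like cells Hpgd was rare, with 57 UMIs in 27 of 8391 control cells and 91 UMIs in 26 of 5492 knockout cells. The ratio was 2.26 (1.61 to 3.21). Cluster 40, led by Tff2, Pkhd1, Ttr and Cldn3, held 30 of the control and 83 of the knockout UMIs, at 43.1 CPM (29.1 to 61.6) and 57.9 CPM (46.1 to 71.7). Outside it 27 UMIs (0.203 CPM) were left in control and 8 (0.0859 CPM) in knockout, so the direction turned, and with tumour clusters weighted alike the class was no call. Of the knockout UMIs 30 lay in 4 cells with at least 3 tuft cell markers, of which the control library had none.

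Ptger2, the EP2 receptor, had its highest levels in some of the leukocyte classes, though fibroblast-like cells held 54.1% of its 157 UMIs in control. T-like cells had 28.6 CPM (17.2 to 44.6) in control, against 28.1 CPM (24.3 to 32.4) in knockout, neutrophil-like cells 15.7 CPM (8.39 to 26.9) and 23.8 CPM (11.9 to 42.6), and monocyte/macrophage-like cells 10.95 CPM (7.15 to 16.05) and 7.20 CPM (4.40 to 11.1). The T-like and neutrophil-like intervals overlap in each library. Control fibroblast-like cells had 8.63 CPM (6.90 to 10.7), which overlaps the control monocyte/macrophage-like interval. B-like, plasma-like and migratory DC-like cells held at most 1 Ptger2 UMI per library. Tumour cells had 4 UMIs in 8391 control and 8 in 5492 knockout cells, levels whose intervals include the estimated free RNA level. cDC1-like cells, dendritic cells that present antigen to CD8 T cells, had 0 UMIs in 54 control cells and 21 UMIs in 18 of 116 knockout cells, or 18.7 CPM (11.6 to 28.6). The control value allows up to 6.96 CPM, and the class was too small to be compared.

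The T-like ratio of Ptger2 was 0.984 (0.613 to 1.67), yet over all kept cells Ptger2 was higher, at 0.930 CPM in control and 2.20 CPM in knockout, a ratio of 2.37 (1.94 to 2.90). T-like cells supplied 12.1% (7.45 to 18.3) of its UMIs in control and 67.0% (61.2 to 72.4) in knockout, and they made up 1.65% and 15.5% of kept cells. Among 5 T-like clusters with at least 15 cells in each library Ptger2 was higher in knockout in 3 and lower in 2. The only interval that excludes 1 was below it, in cluster 28, from 3 control and 2 knockout UMIs, at 61.7 and 6.44 CPM. The cluster led by Cd3g, Trbc2 and Tox (cluster 23) had the highest knockout level, with 58.8 CPM (23.7 to 121) in 30 control cells and 90.9 CPM (72.0 to 113) in 174 knockout cells. Tox encodes a factor of chronically stimulated T cells. The Lef1 cluster (cluster 13) had 0 UMIs in 23 control cells and 11.04 CPM in 464 knockout cells.

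In fibroblast-like cells Ptger2 was called lower, from 85 to 21 UMIs, or 8.63 and 2.92 CPM, a ratio of 0.339 (0.199 to 0.551). Control levels were highest in clusters 50, 49 and 35, with 28.5, 21.7 and 19.5 CPM, and with clusters weighted alike the log2 ratio was 0.13 in place of -1.51. Neither of the other 2 calls was distinct from 1 by counting error: the neutrophil-like ratio was 1.51 (0.614 to 3.66), from 13 and 11 UMIs, and the monocyte/macrophage-like ratio 0.657 (0.348 to 1.22), from 26 and 20 UMIs. An antisense gene, Gm17173, overlaps Ptger2, and whether the counting used strand is not given in the sources used here.

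Ptger4, the EP4 receptor, was highest in migratory DC-like cells, dendritic cells on their way to lymph nodes, in which PGE2 is known to act. These had 170 CPM (132 to 214) in 70 knockout cells, with a UMI in 32 of them, and 218 CPM (122 to 359) in 17 control cells. T-like, monocyte/macrophage-like and cDC1-like cells followed. T-like cells had 31.6 CPM (19.6 to 48.3) and 33.4 CPM (29.2 to 38.1), monocyte/macrophage-like cells 32.9 CPM (26.0 to 41.0) and 28.8 CPM (22.8 to 35.8), and cDC1-like cells 18.6 CPM (8.01 to 36.6) and 31.2 CPM (21.7 to 43.4). Knockout NK-like cells had 16.7 CPM (9.12 to 28.0), below the T-like interval, and in control the 5 UMIs of 37 NK-like cells allow no order. The intervals of the T-like, monocyte/macrophage-like and cDC1-like classes overlap within each library. Fibroblast-like cells had 14.2 and 20.9 CPM, and tumour cells 4.25 and 3.68 CPM.

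No Ptger4 ratio was called in the classes where it was counted. It was 1.06 (0.676 to 1.74) in T-like, 0.876 (0.633 to 1.21) in monocyte/macrophage-like and 0.866 (0.756 to 0.992) in tumour cells. The fibroblast-like ratio of 1.47 (1.16 to 1.86) lay just inside the limit. Neutrophil-like cells fell below the minimum of 20 UMIs and were not counted. They had 7 control and 12 knockout UMIs, or 8.48 and 26.0 CPM, a ratio of 3.06 (1.11 to 9.19). Over all kept cells the ratio was 1.36 (1.24 to 1.48), and the T-like share of Ptger4 UMIs in knockout was 21.4%. In the macrophage clusters Ptger4 was highest in the C1q cluster 16, with 57.6 CPM (41.2 to 78.5) and 45.9 CPM (34.5 to 59.9). Among 1625 knockout T-like cells, 28 held a UMI of both receptors, where the product of the shares gives 19.5. Ptger4 overlaps Ttc33 on the opposite strand, so its counts share the doubt about strand.

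The other genes of the pathway were taken as lists. Of 11 other prostanoid genes, 6 were counted in fibroblast-like cells, with 2 called higher and 3 lower, against 19.5% and 13.5% of all genes. Their median log2 ratio was -0.23 against 0.09 over all genes. Ptger3, the EP3 receptor, which lowers cyclic AMP, had 160 and 53.6 CPM there and 33.3 and 13.0 CPM in tumour cells. Ptgis, prostacyclin synthase, had 350 and 177 CPM in fibroblast-like cells, while Ptgir, the prostacyclin receptor, had 7.72 and 26.2 CPM. Of 9 counted genes that release arachidonic acid, tumour cells had none higher and 2 lower, against 10.1% and 5.58% of all genes. T-like cells had 3 of 5 lower and none higher, against 16.4% and 10.3%, with a median log2 ratio of -1.07 against -0.07, and these 3 rest on 5 to 16 control UMIs each. Fibroblast-like cells had 1 of 5 lower and none higher, against 13.5% and 19.5%: Mgll, a lipase, with 55.5 and 9.46 CPM. Of 6 genes of prostaglandin transport and breakdown, fibroblast-like cells had 1 called higher and 1 lower, against 19.5% and 13.5% of all genes. Abcc4, an exporter of prostaglandins, was the one called higher, with 10.3 and 15.6 CPM. Slco2a1, the importer that precedes breakdown by HPGD, was the one called lower, with 30.2 and 10.7 CPM. The fibroblast-like values carry the same difference in clusters as above.

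Of 11 genes that respond to EP receptors and cyclic AMP, none was called in tumour cells. Of all genes there 10.1% were called higher and 5.58% lower. The median log2 ratio of the list was -0.11 against -0.05 over all genes. In T-like cells 1 of 11 was called higher and 2 lower, against 10.3% and 16.4% of all genes. Areg, a growth factor of the epidermal growth factor family, had 6.02 and 21.4 CPM. Its control level lay near 4.51 CPM, the floor of 3 UMIs in control T-like cells. Nr4a2, a nuclear receptor, had 212 and 129 CPM, and Fosl2, an AP-1 factor, 81.3 and 42.0 CPM. Monocyte/macrophage-like cells had 1 of 10 higher and 1 lower, where 7.89% and 10.2% of all genes were. Neutrophil-like cells had 1 of 9 higher and 2 lower, where 16.8% and 18.7% were, and fibroblast-like cells none of 11 higher and 3 lower, where 19.5% and 13.5% were.

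Across 25 levels (14 named classes in 2 libraries, with at least 20 cells), each gene was set beside 12861 others by the Pearson correlation of log2(CPM + 10). The points share libraries and markers, and the values are a description. Ptgs2 was most like Clec4e, Hcar2 and Mmp8, each with r = 0.97, and Ptges3 most like Hsp90ab1, with r = 0.92. Ptges was most like Igfbp6 (0.89) and Dcn (0.88), Ptgs1 most like Mgst1 (0.91) and Hpgd most like Prg4 (0.94). Ptges2 was most like Lpcat3 (0.87). Ptger2 was most like Ccl4 (0.84) and Ptger4 like Epsti1 (0.88). Among the 8 genes the highest pair was Ptgs1 and Hpgd, with 0.73, and the lowest Ptgs2 and Ptges3, with -0.58.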

How the data were processed

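Tumours of 5 pooled mice per genotype gave 1 library each, with the 10x 3′ v3.1 kit per the labels. The deposited values were raw UMI counts per gene and barcode. The file headers name Cell Ranger 8.0.0, whereas the submitters' processing notes list version 3.1.3 and mm10; whether the counting used strand is not given in the sources used here. From these counts, barcodes with fewer than 500 genes or more than 15% mitochondrial UMIs were dropped, and 148 control (1.27%) and 341 knockout (3.16%) cells called as doublets by Scrublet were removed. Cells were clustered with scanpy 1.11.5 (2000 variable genes, 30 components, 15 neighbours, Leiden resolution 1), leukocyte and stromal clusters were split further, and clusters were named from marker lists.

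UMIs were summed per class and library and given as CPM, with exact Poisson intervals, and ratios with exact conditional intervals (Clopper-Pearson) at 95%. Shares have exact binomial intervals. UMIs within a cell are not independent, so the intervals are too narrow for the spread between cells or mice. Log2 ratios used 1 UMI added to each sum. A value was counted with at least 20 UMIs over both libraries, and 0 UMIs were set to a floor of 3 for a bound. The free RNA level of a class was estimated from epithelial/tumour markers. For the epithelial/tumour-like and acinar-like classes it was estimated from fibroblast, monocyte/macrophage and T cell markers. With 1 library per genotype no test or p-value was made. The ratio and interval scripts were tested on simulated data.

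The 8 genes, the gene lists and the marker lists were chosen with earlier results of these data known. All 8 genes were named. From each list, up to 4 genes per class were named, those with the largest change past 1.5-fold and at least 100 UMIs, as well as the 3 genes most like each of the 8 by class levels, of which the text gives some. Gene symbols were those of the files, and 32158 of 32285 identifiers were found in the GENCODE annotation used for overlaps. Promoters came from RefSeq for all 8 genes. The alternatives were other cell filters, doublets kept, other resolutions, each cell weighing the same, clusters weighted alike, cells named from their own markers, unnamed clusters added, other count minimums and pseudocounts, free RNA subtracted, and clusters or cells left out.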

Additional observations from a re-analysis of the deposited data

Results flagged for a closer look

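For 2 genes the value called in one class lay in the opposite direction to that in another. The log2 ratio of Hpgd, knockout over control, was 1.17 in epithelial/tumour-like and 5.09 in monocyte/macrophage-like cells, but -1.90 in fibroblast-like cells. The log2 ratio of Ptger2 was 0.62 in neutrophil-like cells, but -0.59 in monocyte/macrophage-like and -1.51 in fibroblast-like cells. These differences between classes were not tested, since each class had 1 library per genotype. The Ptger2 counting intervals in neutrophil-like and monocyte/macrophage-like cells both include a ratio of 1.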

How the results depend on the processing

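Of 575 values of the ratios under the alternatives, 531 stayed close to the reported one, 40 moved beyond its counting interval and 4 turned the direction of a called value. Many of the 531 could not move. The fold of 2 (31 values) and the minimum of 100 UMIs (24 values) change calls or which values are counted, but no ratio. Alternatives that change the cells or weights of only some classes leave the ratios of the other classes as they were. Values that were no call changed sign too, among them Ptgs2 in neutrophil-like cells (-0.24 with clusters weighted alike) and in epithelial/tumour-like cells (-0.63 with doublets kept). Ptgs2 in neutrophil-like cells became a call of higher under 4 alternatives, at up to 0.70 with doublets kept. The 4 turned values were log2 ratios of -1.12 for Hpgd in epithelial/tumour-like cells without the cluster led by Tff2 and Pkhd1, 0.26 for Ptgs2 and 0.13 for Ptger2 in fibroblast-like cells with clusters weighted alike, and 0.027 for Ptger2 in monocyte/macrophage-like cells with cells named singly from markers. The count of 3 values called higher became 1 with a minimum of 100 UMIs. The count of 8 called lower became 5 with the strict cell filter, 5 with a minimum of 100 UMIs, 3 with the clusters of the other 4 classes weighted alike, 4 with only clusters of at least 15 cells in each library, and 3 with a fold of 2. Ptgs1 in epithelial/tumour-like cells and Hpgd in monocyte/macrophage-like cells stayed called under every alternative that counted them at 1.5-fold. For the other changes the cause was not tested. Some alternatives were chosen after seeing the data. These weight alike the clusters of the 4 classes other than the tumour class, leave out clusters, shared barcodes or tuft-marker cells, or use a fold of 2. No paired analysis was possible because each genotype had 1 library. Depth limits the calls of Ptges2 and Ptger2 in leukocytes, which rest on at most 26 UMIs per library.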

Other observations

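Arachidonic acid also feeds the lipoxygenase branch, which makes leukotrienes. Of 8 such genes, 4 were counted in neutrophil-like cells, with 2 called lower in the knockout library and none higher, where 18.7% and 16.8% of all genes were, and a median log2 ratio of -0.63 against -0.05 over all genes. Alox5, the 5-lipoxygenase, had 149 CPM in control and 77.9 CPM in knockout, and Lta4h, which makes leukotriene B4, had 162 and 47.6 CPM. In monocyte/macrophage-like cells 4 of 7 were called lower and 1 higher, where 10.2% and 7.89% of all genes were. The clusters of this class differed in share, with cluster 21 at 29.7% of control and 12.6% of knockout cells and cluster 24 at 7.33% and 28.0%, and the part of this was not tested. Ltc4s, which makes leukotriene C4, had 55.2 and 20.2 CPM, Lta4h had 32.4 and 21.2 CPM, and Ltb4r1, a receptor for leukotriene B4, had 51.0 and 97.5 CPM. In epithelial/tumour-like cells 5 of 6 were called higher and none lower, where 10.1% and 5.58% of all genes were, at low levels: Alox5ap, the partner of 5-lipoxygenase, had 0.373 and 0.582 CPM. Summed markers of leukocytes differed in the same class, with 8 of 8 T cell markers present in both libraries at 2.57 and 13.2 CPM, 6 of 6 NK markers at 0.470 and 2.89 CPM, and 8 of 8 monocyte/macrophage markers at 9.82 and 12.5 CPM, while 7 of 7 neutrophil markers had 10.3 and 2.59 CPM. Their part in these values was not tested.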
